A study of Mus musculus with 22 samples.

Results

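The tubulin isotypes are 10 genes that encode the building blocks of microtubules: 6 beta tubulin genes (Tubb2a, Tubb2b, Tubb2c, Tubb3, Tubb5 and Tubb6) and 4 alpha tubulin genes (Tuba1a, Tuba1b, Tuba1c and Tuba4a). They were taken by gene symbol from 16271 genes with a value in all 4 RNA libraries, and all 10 were present with 1 transcript row each. Tubb3 was chosen by its RPKM in these libraries, which earlier results showed to be higher in cells without Lsh, so its difference between the genotypes is given as a description, with no test. The other 9 genes were added as members of the same family. RNA was sequenced from primary mouse embryonic fibroblasts (MEFs) of C57BL/6 embryos at E13.5, taken from the body of the embryo and used at passage 3 to 4. Of the 22 samples in the labels, 4 were used: wild-type replicates 1 and 2 (WT1 and WT2, genotype Lsh+/+) and Lsh knockout replicates 1 and 2 (KO1 and KO2, genotype Lsh-/-). Lsh, a chromatin remodeller needed for normal DNA methylation, is the protein of the gene Hells. The labels name no litters, animals or clones for these biological replicates, so p-values measure the spread between these libraries.

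Microtubules are hollow tubes of alpha and beta tubulin dimers that carry cargo, shape the cell and form the mitotic spindle. Mammals have several genes of each kind. Their proteins differ mainly in the acidic tail at the C-terminus, which faces outward and binds motors and enzymes. Tubb5 is the common beta tubulin of dividing cells, Tubb6 and Tubb2c (now named Tubb4b) are found in many tissues, and Tubb2a and Tubb2b are abundant in brain. Tubb3 is best known as a marker of neurons. Tuba1a is the main alpha tubulin of the developing brain, Tuba1b and Tuba1c are found in most cells, and Tuba4a is the isotype whose gene does not encode the last tyrosine of the tail.

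The libraries were estimated to hold 122.5 to 176.6 M (mega) mapped reads. Values are RPKM (reads, scaled to a kilobase of transcript and to M mapped reads), so levels may be compared between genes. For genes as alike as the tubulins this holds only as far as reads were assigned to the right gene. Hells was at 0.865 RPKM (WT1), 1.06 RPKM (WT2), 0.430 RPKM (KO1) and 0.550 RPKM (KO2), lower in both KO libraries. The labels do not state the deleted exons. Libraries with the same number resembled each other most. Across genes, Pearson's r was 0.980 for WT1 with KO1 and 0.983 for WT2 with KO2, against 0.893 for WT1 with WT2 and 0.897 for KO1 with KO2. The deposited rows with a gene symbol also differed by number, with 26886 in replicate 1 and 21136 in replicate 2. Each KO minus WT difference is therefore given within each number. The 14 fibroblast markers summed to 3486 to 3907 RPKM, but several differed widely by replicate number. Lum was at 0.718 RPKM in WT1 and 1.27 RPKM in KO1 against 108 and 105 RPKM in WT2 and KO2. Pdgfra was at 0.987 and 2.46 RPKM against 23.2 and 23.1 RPKM, and Dcn at 3.88 and 13.9 RPKM against 121 and 129 RPKM. S100a4 lay the other way, at 277 and 313 RPKM against 35.6 and 45.7 RPKM. Macrophage markers (9 genes) summed to 49.6 and 146.8 RPKM in WT1 and WT2 and to 5.95 and 70.5 RPKM in KO1 and KO2, and epithelial markers (6 genes) to 16.5 and 17.4 against 5.92 and 5.30 RPKM. Their part in the tubulin values was not tested. In bulk RNA, fewer cells of a type and less RNA per cell cannot be told apart.

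Promoter sequences show what the starts of these genes have in common and where they differ, since Lsh acts on DNA methylation, which falls on CpG pairs. The RefSeq table of the build GRCm38.p6 held a promoter for 8 of the 10 genes (no entry for Tubb2b and Tubb6). Shown are the 250 bases just before the start of Tubb3 and Tubb2a, both higher in KO within both replicate numbers, and of Tubb5 and Tuba1b, both lower. The sequences are written 5′ to 3′ on the gene's own strand, with CpG pairs in capitals. They lie at chr8:123411303-123411552 (plus strand, Tubb3), chr13:34078009-34078258 (minus, Tubb2a), chr17:35838302-35838551 (minus, Tubb5) and chr15:98934391-98934640 (minus, Tuba1b).
Tubb3: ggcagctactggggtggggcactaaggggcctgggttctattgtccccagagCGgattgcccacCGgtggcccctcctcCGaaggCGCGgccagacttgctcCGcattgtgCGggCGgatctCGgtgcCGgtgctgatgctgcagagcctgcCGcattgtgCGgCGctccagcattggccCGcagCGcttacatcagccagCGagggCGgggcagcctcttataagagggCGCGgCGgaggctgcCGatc
Tubb2a: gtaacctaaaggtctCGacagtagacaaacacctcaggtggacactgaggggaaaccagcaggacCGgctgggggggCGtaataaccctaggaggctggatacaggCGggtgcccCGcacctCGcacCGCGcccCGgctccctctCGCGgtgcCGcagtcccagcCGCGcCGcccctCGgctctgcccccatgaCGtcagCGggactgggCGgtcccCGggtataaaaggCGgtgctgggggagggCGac
Tubb5: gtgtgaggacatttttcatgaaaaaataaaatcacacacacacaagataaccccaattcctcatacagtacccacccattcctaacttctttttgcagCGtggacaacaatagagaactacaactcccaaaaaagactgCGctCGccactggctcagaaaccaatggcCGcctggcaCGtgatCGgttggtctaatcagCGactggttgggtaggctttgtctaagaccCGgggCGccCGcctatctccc
Tuba1b: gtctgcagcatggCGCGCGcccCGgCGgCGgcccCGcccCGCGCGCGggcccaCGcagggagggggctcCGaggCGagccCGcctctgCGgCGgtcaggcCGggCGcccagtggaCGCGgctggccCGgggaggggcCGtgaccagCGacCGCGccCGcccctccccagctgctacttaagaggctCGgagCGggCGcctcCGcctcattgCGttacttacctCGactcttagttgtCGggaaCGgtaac
Tubb3 has 21 CpG pairs in this window, Tubb2a 22, Tubb5 10 and Tuba1b 35. The median over 32851 promoter windows of the same length is 6. Of the other matched genes, Tuba4a has 20, Tubb2c 13, Tuba1a 11 and Tuba1c 4. The letters TATAA, searched on both strands, are in the windows of Tubb3, Tubb2a and Tuba1a and in 22.8% of all windows. The GC box letters GGGCGG, which hold a CpG pair, on either strand, are in 6 of the 8 windows (not in those of Tubb5 and Tuba1c) and in 32.7% of all windows. The letters CCAAT, on either strand, occur in 5 of the 8 (Tubb5, Tubb2c, Tubb3, Tuba1a and Tuba1c) and in 33.8% of all. DNA methylation was not measured in the files used here.

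Among beta tubulins, Tubb5 had the highest level in every library. It was at 487 RPKM (WT1), 591 RPKM (WT2), 443 RPKM (KO1) and 471 RPKM (KO2). By its mean over the libraries it ranked 17th among all 16271 genes. Tubb6 came next, with 379 and 147 RPKM in the WT libraries and 305 and 120.0 RPKM in the KO libraries. Tubb2c was at 142 RPKM (WT1), 107 RPKM (WT2), 125 RPKM (KO1) and 81.7 RPKM (KO2). These 3 genes made up 89.7% and 89.0% of beta tubulin RPKM in WT1 and WT2. Tubb2b and Tubb2a, neighbours on chromosome 13, followed at 50.5 and 46.7 RPKM in WT1 and at 50.1 and 39.6 RPKM in WT2. Tubb3 had the lowest level of the beta tubulins in all 4 libraries.

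Among alpha tubulins, Tuba1a led with 311 RPKM (WT1), 355 RPKM (WT2), 268 RPKM (KO1) and 262 RPKM (KO2). Tuba1b was at 152 and 189 RPKM in the WT libraries and at 113 and 129 RPKM in the KO libraries. Tuba1c was at 53.5 RPKM (WT1), 24.4 RPKM (WT2), 46.8 RPKM (KO1) and 16.7 RPKM (KO2). Tuba1a, Tuba1b and Tuba1c lie together on chromosome 15 (build mm9, between 98761862 and 98868537). Tuba4a, on chromosome 1, was at 25.97 RPKM (WT1), 7.29 RPKM (WT2), 31.6 RPKM (KO1) and 7.85 RPKM (KO2). Over both classes the order by mean level was Tubb5, Tuba1a, Tubb6, Tuba1b, Tubb2c, Tubb2b, Tubb2a, Tuba1c, Tubb3 and Tuba4a. Only Tubb5 over Tuba1a and Tubb2c over Tubb2b were separated without overlap of the 4 libraries. The other 7 neighbours in this order overlapped.

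**Figure D1:**
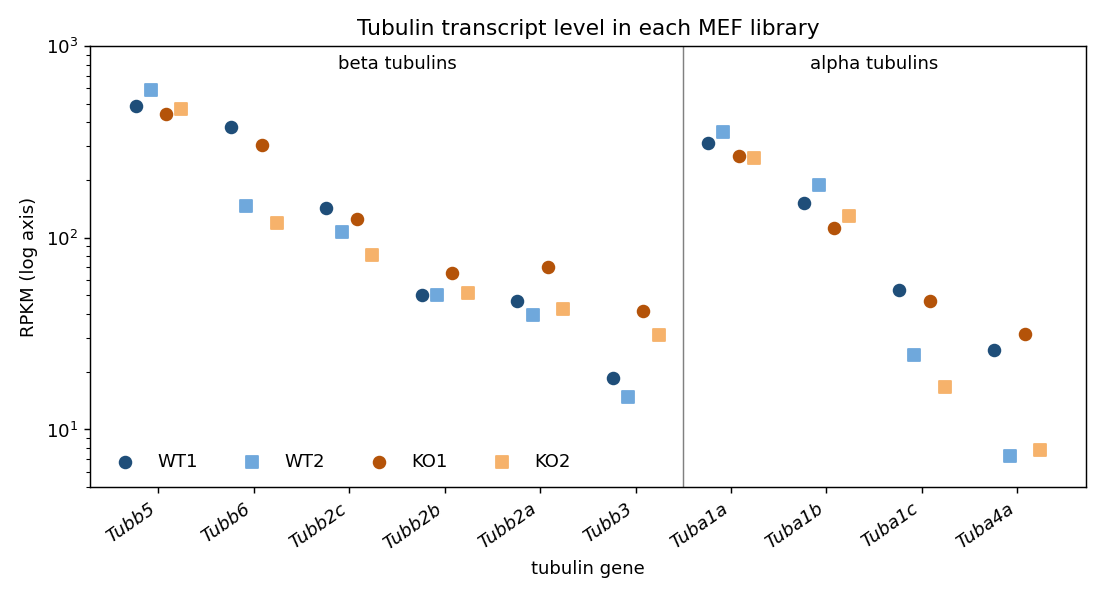
RPKM of the 10 tubulin genes on a log axis, 1 point per library (circles replicate 1, squares replicate 2, blue WT, orange KO). Both KO points of Tubb3 (31.2 and 41.4 RPKM) lie above both WT points (14.7 and 18.5 RPKM). Tubb6, Tuba1c, Tuba4a, Tubb2c and Tubb2a separate by replicate number without overlap, as 74.5% of all genes tested do.

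The comparison of KO with WT asks how tubulin transcripts differ when Lsh is missing. Tubb3 (chromosome 8, 125935464 to 125945911 in mm9, plus strand) was at 18.5 RPKM (WT1), 14.7 RPKM (WT2), 41.4 RPKM (KO1) and 31.2 RPKM (KO2). The genotypes did not overlap. The KO level was 2.24 times the WT level for replicate 1 and 2.12 times for replicate 2. On the log2(RPKM + 0.5) scale, on which changes of low genes look smaller than they are, the pooled difference was 1.10 (SE 0.27 with genotype as the only term, 2 libraries per genotype). Leaving out 1 library at a time gave 0.90 to 1.30. These values chose the gene and are given without a test.

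Tubb2a and Tubb2b, also known from brain, lay on the same side by smaller amounts. Tubb4 (now Tubb4a), a brain isotype that is not among the members, lay on the other side. It was low (0.202 to 2.57 RPKM), with KO to WT ratios of 0.436 for replicate 1 and 0.432 for replicate 2. Tubb2a was at 46.7 RPKM (WT1), 39.6 RPKM (WT2), 69.9 RPKM (KO1) and 42.5 RPKM (KO2). The KO to WT ratio was thus 1.499 for replicate 1 and 1.07 for replicate 2, and KO2 lay below WT1. Tubb2b was at 50.5 and 50.1 RPKM in WT and at 65.3 and 51.3 RPKM in KO, ratios of 1.29 and 1.02. For replicate 2 both genes were therefore close to WT, whereas Tubb3 was not. Whether the KO minus WT difference of Tubb2a or Tubb2b depends on the replicate number was not tested, as there is 1 library for each genotype and number.

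The abundant beta tubulins lay on the other side. Tubb5 was lower in KO by 9.10% for replicate 1 and by 20.3% for replicate 2, and its KO and WT libraries did not overlap. Tubb6 was lower by 19.5% and 18.3%, a difference of similar size in both numbers although its level differed by number. Tubb2c was lower by 12.3% and 23.9%. The log2 differences were -0.23 (SE 0.27) for Tubb5, -0.30 (SE 0.69) for Tubb6 and -0.29 (SE 0.33) for Tubb2c. These SEs come from the fit with genotype as the only term, in which the spread between the numbers counts as error. Once the number was a term as well, they were 0.14, 0.15 and 0.16.

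Of the alpha tubulins, Tuba1a, Tuba1b and Tuba1c were lower in KO and Tuba4a was higher, each within both numbers. The KO to WT ratio of Tuba1b was 0.742 for replicate 1 and 0.684 for replicate 2. Both KO libraries of Tuba1b lay below both WT libraries, and the same held for Tuba1a, with ratios of 0.861 and 0.738. For Tuba1c the ratios were 0.875 and 0.685, and for Tuba4a 1.22 and 1.08. The pooled log2 difference was -0.49 (SE 0.26) for Tuba1b, -0.33 (SE 0.25) for Tuba1a, -0.36 (SE 0.66) for Tuba1c and 0.19 (SE 0.92) for Tuba4a. With the replicate number as a term these SEs were 0.15, 0.15, 0.17 and 0.16.

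Within each of the replicate numbers 4 tubulins had the higher value in KO and 6 the lower, and the genotypes did not overlap for 5 (Tubb3, Tubb2b, Tubb5, Tuba1a and Tuba1b). Among all 11149 genes tested, 22.5% were higher within both numbers, 31.4% were lower within both and 13.4% did not overlap. In limma with genotype as the only term, 0% of all genes passed an adjusted p of 0.05, and 41 genes had an unadjusted p below 0.05. When the replicate number was added as a term 0.673% of all genes passed (0.377% raised and 0.296% lowered). The tubulins were chosen with this contrast in view, so no call is given for them and nothing is read from their counts. The median log2 difference of the 10 genes was -0.16 for replicate 1 and -0.31 for replicate 2, against -0.069 and 0.018 over all genes tested. Each of the 10 genes lay on the same side within both numbers after median-ratio scaling and after quantile normalization as well.

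**Figure D2:**
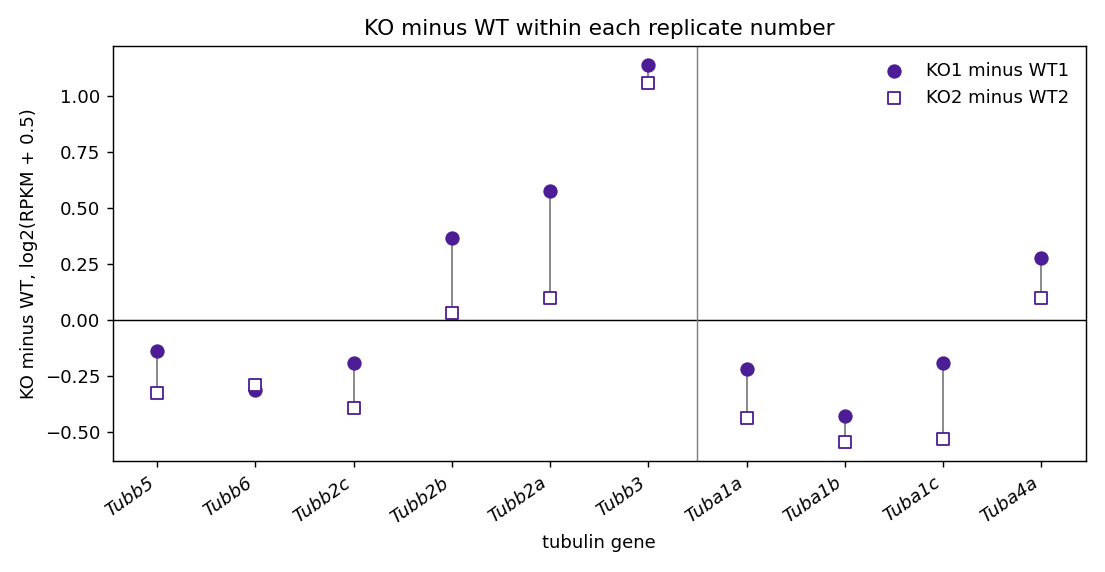
KO minus WT on the log2(RPKM + 0.5) scale for each tubulin gene, with filled circles for replicate 1 and open squares for replicate 2, joined by a line. Tubb3 stands at 1.14 and 1.06; Tubb2a, Tubb2b and Tuba4a lie above 0 and the other 6 genes below 0 in both numbers.

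Shares show the make-up of the tubulin pool without the scale of the library, and they use the same values. Tubb3 made up 1.64% and 1.55% of beta tubulin RPKM in WT1 and WT2 and 3.94% and 3.92% in KO1 and KO2. The difference was 2.30 percentage points for replicate 1 and 2.37 for replicate 2. Tubb2a went from 4.15% to 6.66% for replicate 1 and from 4.17% to 5.33% for replicate 2. Tubb2b went from 4.49% to 6.22% and from 5.28% to 6.43%. Together these 3 genes held 10.3% and 10.995% of beta tubulin RPKM in WT1 and WT2 and 16.8% and 15.7% in KO1 and KO2. The remaining share, that of Tubb5, Tubb6 and Tubb2c, was 83.2% and 84.3% in the KO libraries. Tubb6 had the lower share in KO of replicate 1 (33.7% to 29.1%), while in replicate 2 its share was nearly level (15.5% and 15.04%) and that of Tubb5 was lower (62.2% and 59.04%).

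Among alpha tubulins, Tuba1a held 57.3% and 61.6% in WT1 and WT2 and 58.3% and 62.9% in KO1 and KO2. The share of Tuba1b was lower in KO, at 28.0% and 24.6% for replicate 1 and 32.9% and 31.2% for replicate 2. Tuba4a was higher in KO, at 4.79% and 6.89% for replicate 1 and at 1.27% and 1.89% for replicate 2. The share of Tuba1c was 9.87% in WT1 and 10.2% in KO1 against 4.25% in WT2 and 4.03% in KO2, so it followed the replicate number.

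**Figure D3:**
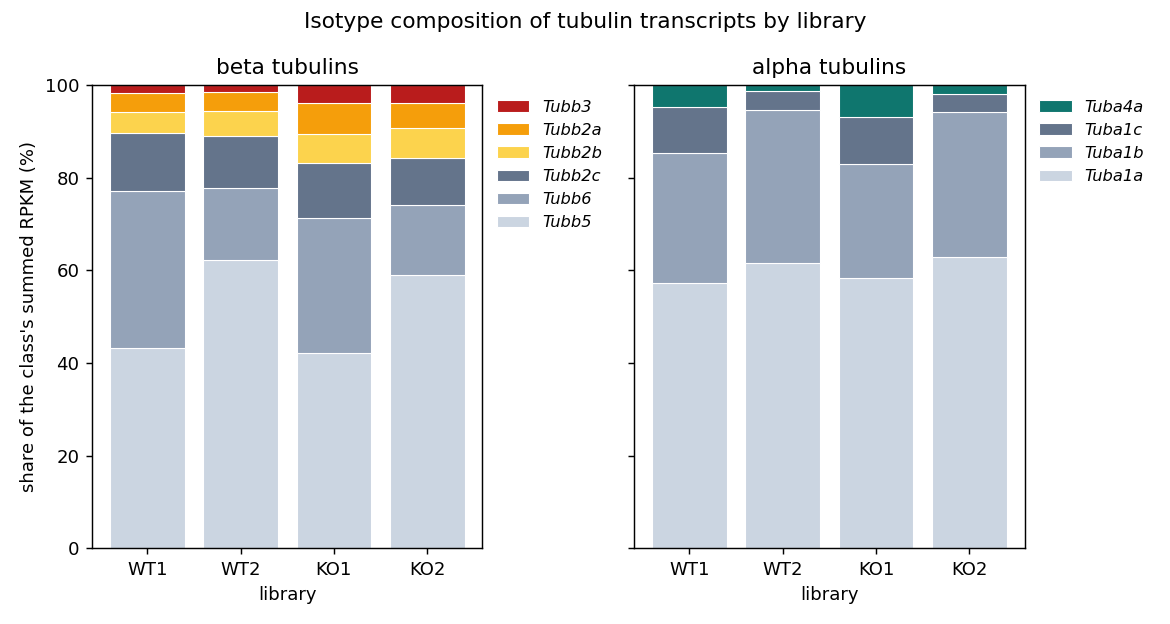
Stacked bars of each isotype's share of the summed RPKM of its class, for beta (left) and alpha tubulins (right), 1 bar per library. The Tubb3 segment at the top of the beta bars is 1.64% and 1.55% in WT1 and WT2 and 3.94% and 3.92% in KO1 and KO2, while the Tubb6 segment is wide in both replicate 1 bars and narrow in both replicate 2 bars.

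Summed alpha tubulin was 542 RPKM (WT1), 575 RPKM (WT2), 459 RPKM (KO1) and 416 RPKM (KO2). Both KO libraries lay below both WT libraries; the sum is over genes chosen with this contrast in view and is given with no test. Summed beta tubulin was 1125 and 949 RPKM in WT and 1049.6 and 798 RPKM in KO, so the genotypes overlapped. Within the numbers KO was lower by 6.68% and 16.0% for beta and by 15.4% and 27.8% for alpha tubulin. Without Tubb3, summed beta tubulin was lower by 8.86% and 18.0%. The ratio of beta to alpha RPKM was 2.08 and 1.65 in WT1 and WT2 and 2.29 and 1.92 in KO1 and KO2.

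The contrast of replicate 2 with replicate 1 was not used to choose the genes and could be tested, with 1 residual degree of freedom per gene, and its p-values therefore lean on the spread pooled over all genes. In limma with genotype as a second term 5 of the 10 tubulins passed, all lower in replicate 2. Of all genes tested 47.7% passed in either direction and 11.9% passed as lower. A share of 5 in 10 is near the first of these and above the second. The second depends on the scaling. As lower in replicate 2, 1331 genes were called without scaling, 2378 after median-ratio scaling and 2309 after quantile normalization. The 10 genes were not tested as a set. The replicate 1 and 2 libraries did not overlap for the same 5 genes, against 74.5% of all genes. Of all genes, 35.8% were raised and 11.9% lowered in replicate 2, and the median over all genes was 0.25 on the log2 scale. Among the 5323 genes called, 75.0% were raised, which became 51.9% after median-ratio scaling and 50.1% after quantile normalization. Tuba4a fell by 1.85 on the log2 scale (SE 0.16, limma adjusted p 1.08e-05), with WT at 25.97 and 7.29 RPKM and KO at 31.6 and 7.85 RPKM in replicates 1 and 2. Tubb6 fell by 1.35 (SE 0.15, limma adjusted p 4.58e-05), and its replicate 1 level was 2.58 times its replicate 2 level in WT and 2.54 times in KO. Tuba1c fell by 1.29 (SE 0.17, limma adjusted p 0.000171). Relative to the median of all genes, the differences were -2.11 for Tuba4a, -1.61 for Tubb6 and -1.54 for Tuba1c. These 3 calls held under both scalings. They also held with each library left out in turn, in fits with the replicate number as the only term, since the genotype term would leave no residual degree of freedom. In those fits the number with 1 library has no spread of its own and is assumed to vary like the other. The fibroblast markers Lum, Pdgfra, Dcn and S100a4 differed by number as well, and their part in these differences was not tested.

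Tubb2c and Tubb2a were closer to the threshold. Tubb2c fell by 0.51 (SE 0.16, limma adjusted p 0.0230), a call lost without a filter on low values (0.0589) and without the genotype term (0.0617). With a library left out as well as the genotype term, the adjusted p of Tubb2c was 0.0355 without KO1, 0.0766 without WT2, 0.153 without WT1 and 0.314 without KO2. Tubb2a fell by 0.47 (SE 0.18, adjusted p 0.0481), which was lost under 6 of 7 other limma settings (adjusted p 0.00554 to 0.112 over the 7), the fit without the genotype term among them (0.103). With a library left out as well, its adjusted p was 0.00618 without WT1 and 0.252 to 0.578 without any of the other 3. Tubb3 missed the threshold (log2 difference -0.36, SE 0.16, limma adjusted p 0.0919) and passed it after median-ratio scaling (-0.64, adjusted p 0.00674). Tubb5, Tubb2b, Tuba1a and Tuba1b missed it at log2 differences of 0.18, -0.18, 0.079 and 0.26, and Tubb5 passed after quantile normalization (0.43, adjusted p 0.0364), Tubb2b after median-ratio scaling (-0.46, adjusted p 0.0440). The signs of Tubb5, Tuba1a and Tuba1b were the reverse after median-ratio scaling (-0.10, -0.21 and -0.025). The share of Tubb5 was 62.2% and 59.04% in WT2 and KO2 against 43.3% and 42.2% in WT1 and KO1. The share of Tubb3 differed by -0.060 percentage points between the numbers. The cultures and the processing of the 2 numbers cannot be told apart.

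**Figure D4:**
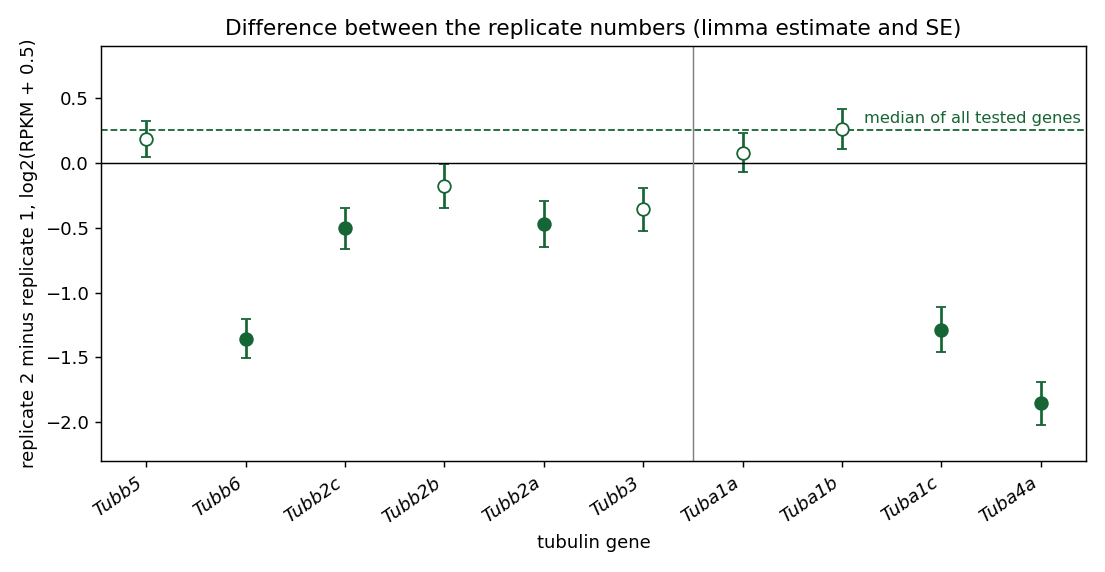
Replicate 2 minus replicate 1 on the log2(RPKM + 0.5) scale, limma estimate with its SE, filled where the adjusted p was below 0.05; the dashed line is the median of all tested genes (0.25). Tubb6, Tuba1c and Tuba4a lie between -1.85 and -1.29, far below that line.

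Tubulin genes are alike in their coding parts, and how the authors treated reads that match several genes is not given in the sources used here, so the levels of single isotypes are uncertain to that extent. Gapdh, an abundant housekeeping gene with many near-identical copies, was listed at 0.160 RPKM (WT1), 0 (WT2), 0.298 RPKM (KO1) and 0.179 RPKM (KO2). Actb, looked at beside it, was at 2306 RPKM (WT1), 1492 RPKM (WT2), 1825 RPKM (KO1) and 1228 RPKM (KO2). A low value may thus not mean that a gene is silent. Why Gapdh was low was not tested. Among tubulin pseudogenes, Tubb2a-ps2 (chromosome 12, 11889002 to 11889706 in mm9, minus strand) was listed at 27.8 RPKM (WT1), 20.53 RPKM (WT2), 37.2 RPKM (KO1) and 27.1 RPKM (KO2). That is 59.6%, 51.9%, 53.2% and 63.7% of the Tubb2a level in WT1, WT2, KO1 and KO2. The KO to WT ratio of the pseudogene was 1.34 for replicate 1 and 1.32 for replicate 2. Whether these are reads of Tubb2a or Tubb2b was not tested. The RefSeq table holds 7 alpha or beta tubulin pseudogenes, and 1 of them had a row.

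Within 100 kb of Tubb3 lie 8 genes with a row. Mc1r, the melanocortin receptor gene, ends 816 bases before Tubb3 and was at most 0.02004 RPKM in every library. Tcf25, the next gene before it, was at 26.9 RPKM (WT1), 33.3 RPKM (WT2), 27.4 RPKM (KO1) and 28.7 RPKM (KO2). Def8, the first gene after Tubb3, was at 5.20 and 9.12 RPKM in WT and at 5.00 and 9.07 RPKM in KO. Over Tcf25, Def8, Afg3l1 and Gas8 the KO minus WT difference ran from -0.36 (Afg3l1, replicate 1) to 0.33 (Gas8, replicate 2) on the log2 scale. Fanca and Spire2 were at most 0.217 RPKM, and Dbndd1 was at 0.179 to 0.590 RPKM. At the levels of these 3 genes and of Mc1r the pseudocount of 0.5 holds the log2 difference near 0, so it does not show how much they differ.

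**Figure D5:**
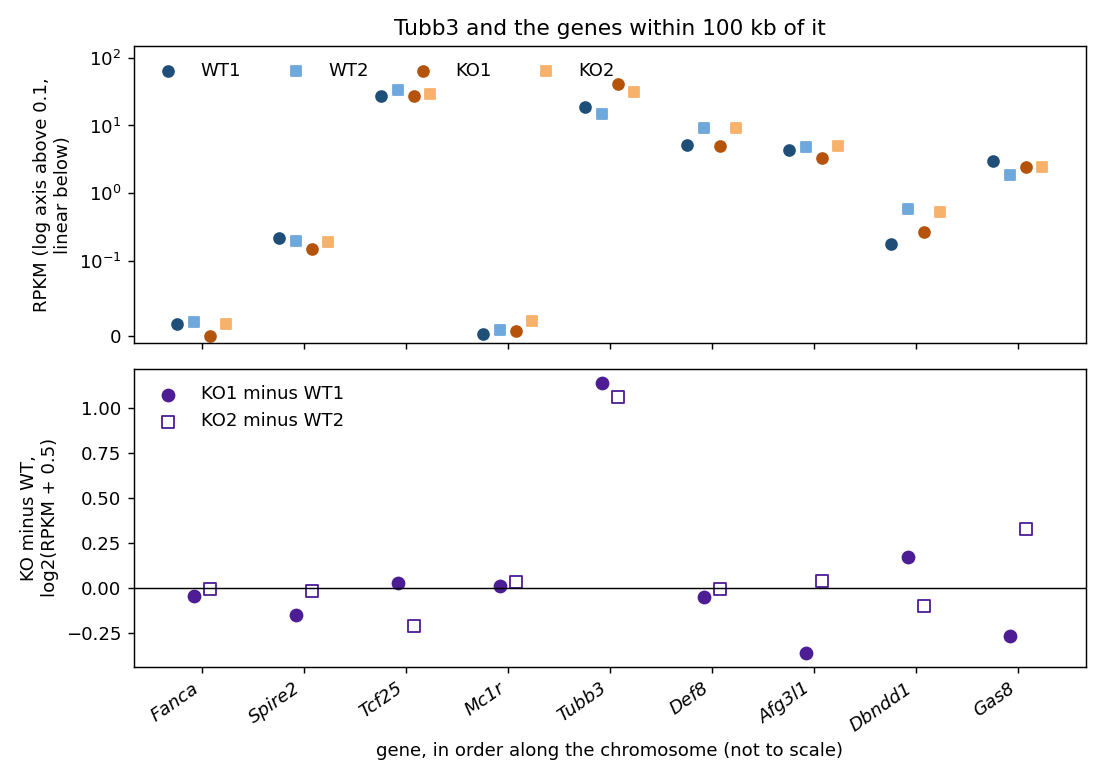
Upper panel, RPKM of Tubb3 and of the genes within 100 kb of it in each library; lower panel, KO minus WT on the log2(RPKM + 0.5) scale within each replicate number. Tubb3 is at 1.14 and 1.06, and its neighbours lie between -0.36 and 0.33, where Mc1r, Fanca, Spire2 and Dbndd1 are held near 0 by the pseudocount.

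Tubb3 is widely used to mark neurons, so the other neuron markers were set beside it. Of 19 with a row, 11 were below 0.5 RPKM in every library. Rbfox3 (the nuclear antigen NeuN) was listed at 0 in WT1 and KO1 and at 0.011 and 0.013 RPKM in WT2 and KO2. Snap25, a protein of synaptic vesicle release, was listed at 0 in WT1 and KO1 and at 0.067 and 0.146 RPKM in WT2 and KO2. The list summed to 102.2 and 86.1 RPKM in WT1 and WT2 and to 96.4 and 90.1 RPKM in KO1 and KO2, so its range overlapped between the genotypes. Most of that came from Ncam1, an adhesion molecule, Gap43, a growth cone protein, and Uchl1, a ubiquitin hydrolase. Ncam1 was at 54.3 and 44.2 RPKM in WT and at 58.4 and 52.8 RPKM in KO, and Uchl1 at 20.2 and 8.43 against 13.4 and 6.06 RPKM. Gap43 was at 11.4 and 26.6 against 15.6 and 23.0 RPKM, and Stmn2 at 12.7 and 0.973 against 4.70 and 1.22 RPKM. Of 8 tested markers, 3 had a higher KO value in each number (Elavl2, Nefm and Ncam1) and 1 a lower (Uchl1). Among all genes 22.5% and 31.4% did. The median KO minus WT difference of the 8 was 0.10 for replicate 1 and 0.24 for replicate 2 on the log2 scale. Over all genes tested this median was -0.069 and 0.018. In limma 0 of the 8 tested neuron markers passed with genotype as the only term (0% of all genes) and 0 with the replicate number added (0.673% of all genes). At an unadjusted p below 0.05 the counts were 0 and 1 of the 8, against 41 and 1015 of all 11149 genes.

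Genes that fold, modify and bind tubulin were taken as 7 lists, which with the neuron markers hold 86 tested genes. In KO against WT 0 of the 86 passed in limma with genotype as the only term, and 0 when the replicate number was added, where 0.673% of all genes passed. At an unadjusted p below 0.05 the counts were 0 and 3 of the 86, against 41 and 1015 of all 11149 genes. The median KO minus WT difference of the 86 was -0.096 for replicate 1 and 0.0065 for replicate 2 on the log2 scale. Over all genes tested this median was -0.069 and 0.018.

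Folding factors bring new alpha and beta tubulin into dimers. Of 17 tested (prefoldin, the CCT chaperonin and tubulin cofactors), 2 had a higher and 3 a lower KO value in each number, where 22.5% and 31.4% of all genes did. Cct6a, a chaperonin subunit, was at 57.8 RPKM (WT1), 39.9 RPKM (WT2), 42.8 RPKM (KO1) and 40.6 RPKM (KO2). Cct3, another subunit, was at 36.2 and 22.9 against 28.4 and 26.7 RPKM, and Pfdn1 of prefoldin at 56.0 and 44.6 against 56.4 and 49.2 RPKM. The differences of Cct3 thus had opposite signs in the 2 numbers.

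Enzymes that modify the tubulin tail or its lysines had 8 of 16 members lower and 0 higher in KO within both numbers, beside 31.4% and 22.5% of all genes. The differences were small, with medians of -0.090 and -0.097 on the log2 scale, against -0.069 and 0.018 over all genes tested. Sirt2, a deacetylase, was at 16.5 RPKM (WT1), 21.5 RPKM (WT2), 19.0 RPKM (KO1) and 20.8 RPKM (KO2). Ccdc23 (now Svbp), the partner of the enzymes that remove the last tyrosine, was at 15.0 and 20.9 against 13.6 and 20.2 RPKM. Ttll12, of the tubulin tyrosine ligase-like family, was at 9.05 and 9.47 against 8.18 and 7.76 RPKM.

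Of 13 proteins on the microtubule lattice, 2 had a higher and 4 a lower KO value in each number (22.5% and 31.4% of all genes). Mtap4 (now Map4), the general microtubule-associated protein of non-neuronal cells, was at 62.9 RPKM (WT1), 64.2 RPKM (WT2), 62.6 RPKM (KO1) and 65.6 RPKM (KO2). Mtap6 (now Map6), which stabilises microtubules against cold, followed the replicate number instead, with 63.0 RPKM (WT1) and 60.6 RPKM (KO1) against 26.6 RPKM (WT2) and 28.9 RPKM (KO2). Mtap7d1 was at 42.9 and 39.3 against 38.0 and 32.1 RPKM. At the plus end, where tubes grow, 2 of 12 tested genes had a higher and 1 a lower KO value in each number, beside 22.5% and 31.4% of all genes. Mapre1 (EB1) was at 29.8 and 18.2 RPKM in WT and at 29.7 and 21.2 RPKM in KO, Pafah1b1 (Lis1) at 23.7 and 27.9 against 25.5 and 33.7 RPKM, and Clip2 at 13.7 and 12.8 against 13.9 and 11.6 RPKM.

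Of the stathmins, which sequester tubulin dimers, and the severing enzymes 8 genes were tested, of which 1 had a higher and 2 a lower KO value in each number (all genes, 22.5% and 31.4%). Stmn2 was at 12.7 RPKM (WT1), 0.973 RPKM (WT2), 4.70 RPKM (KO1) and 1.22 RPKM (KO2). Spast and Fignl1, which belong to the severing enzyme family, were at 4.33 and 6.10 against 4.02 and 7.57 RPKM and at 2.39 and 5.25 against 1.22 and 5.01 RPKM. In the gamma tubulin ring complex, which starts new microtubules, 5 of 10 members had a lower and 0 a higher KO value in each number, against 31.4% and 22.5% of all genes. Its subunits Mzt1, Mzt2 and Tubgcp3 were at 26.5 and 18.9 RPKM, 5.64 and 12.8 RPKM and 3.02 and 3.85 RPKM in WT1 and WT2. In KO1 and KO2 they were at 23.8 and 22.7 RPKM, 4.86 and 12.1 RPKM and 2.67 and 3.58 RPKM.

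Other tubulin genes were low. Tubb4 (now Tubb4a), a brain isotype, was at 0.462 RPKM (WT1), 2.57 RPKM (WT2), 0.202 RPKM (KO1) and 1.11 RPKM (KO2), and Tuba8 at 1.22 and 0.293 against 0.941 and 0.154 RPKM. The ratio of KO to WT for Tubb4 was 0.436 and 0.432, both below 1. Tubb1, Tuba3a, Tuba3b and Tubal3 were at most 0.0195 RPKM. Gamma tubulin Tubg1 was at 4.13 and 5.47 RPKM in WT and at 3.29 and 5.01 RPKM in KO, and delta tubulin Tubd1 at 0.366 and 0.956 against 0.382 and 1.19 RPKM.

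The 5 tested genes whose pattern over the 4 libraries was nearest to that of Tubb3, by the distance between log2(RPKM + 0.5) values centred on each gene's mean, were 4930486L24Rik (distance 0.24), Plac8 (0.28), Flt1 (0.32), Pcdha10 (0.33) and Apol9b (0.33). All 5 were at lower levels than Tubb3. 4930486L24Rik, Pcdha10 and Apol9b were below 0.5 RPKM in both WT libraries and passed the filter only through the KO libraries. Pcdha10 was at 0.034 and 0.027 RPKM in WT and at 1.08 and 0.654 RPKM in KO. Its likeness to Tubb3 thus rests on the pseudocount, which shrinks differences at such levels. The 5 were picked by this pattern, so nothing is read from it. Flt1, a receptor for VEGF, was at 2.11 RPKM (WT1), 1.21 RPKM (WT2), 5.17 RPKM (KO1) and 2.87 RPKM (KO2). Plac8 was at 1.71 and 0.984 against 3.34 and 2.39 RPKM. No tubulin gene was among the 5.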

How the data were processed

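Primary MEF RNA of 2 genotypes was used, with 2 libraries each; the other 18 samples are not analysed here. Per the labels' protocols, RNA was treated with DNase and RiboMinus and selected on poly-T beads. The deposited values are RPKM for each RefSeq transcript, computed by the authors. The submitters' processing notes name mm9 and Partek, and the deposited readme names Cufflinks; neither names the aligner, versions or treatment of reads with several matches. Blank rows (1427 in replicate 1 libraries, 862 in replicate 2 libraries) were dropped. Mapped reads were estimated from whole steps of RPKM times length in short olfactory receptor loci (tolerance 0.02 of a read), per the deposited values. The search covered a limited range of depths, so a simple fraction or multiple of these estimates would not have been seen.

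Rows were summed per symbol. Genes reaching 0.5 RPKM in 2 or more libraries (11149) entered limma 3.58.1 in R 4.3.3 as log2(RPKM + 0.5) (lmFit, eBayes with trend and robust variance), two-sided, Benjamini-Hochberg over all genes, threshold 0.05. Genotype was the only term for KO minus WT; genotype and number were the terms for replicate 2 minus replicate 1. The code was tested on simulated data. The rule for named genes took the 10 tubulins, Hells, the 5 genes nearest to Tubb3 in pattern, genes within 100 kb of it, and, of each list, genes past the threshold with the number as a term and the 3 with the highest mean RPKM. Members and lists were chosen with earlier results of these data known. Other pseudocounts, filters, scalings, rows, denominators and libraries left out were tried.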

Additional observations from a re-analysis of the deposited data

How the results depend on the processing

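In KO minus WT 0 genes were called under every alternative without the replicate number as a block (0 to 0 with 1 library left out). The replicate block gave 75 genes, 37 with a pseudocount of 0.1, 59 with a pseudocount of 1, 105 with median-ratio scaling, 187 with quantile normalization, 3 with the highest transcript row per symbol and 0 with no filter. No label ties same-numbered samples to a shared source, although their deviations had a correlation of 0.875 across genes. In replicate 2 minus replicate 1, 5323 genes were called, 2088 to 4509 with 1 library left out and no genotype term (2088 without WT2, 2705 without KO2). The share of reads could not be computed, since transcript lengths were not used here.

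The 10 tubulins kept their sign in KO minus WT under all 13 alternatives other than leaving out a library. Adding the replicate number, dropping the filter or taking the highest transcript row left each estimate unchanged, so these could not change a sign. Only the other pseudocounts, median-ratio scaling and quantile normalization moved the estimates. The genes were chosen with this contrast in view, so the kept signs and the KO minus WT ranges below are a description. Without 1 library, the difference between the replicate numbers enters the contrast. The log2 difference then ran from -0.99 to 0.38 for Tubb6, -0.59 to 0.013 for Tubb2c, -0.016 to 0.70 for Tubb2a, -1.09 to 0.37 for Tuba1c and -0.78 to 1.16 for Tuba4a. The KO minus WT share (percentage points) ran from 2.29 to 2.38 for Tubb3, -11.6 to 7.30 for Tubb5, -11.7 to 6.59 for Tubb6, -1.14 to 3.44 for Tuba1a, -5.88 to 0.728 for Tuba1b, -3.03 to 3.15 for Tuba1c and -1.14 to 3.86 for Tuba4a. Summed RPKM ran from -239 to 12.5 for beta and from -143 to -100.1 for alpha tubulin. For replicate 2 minus replicate 1 with 1 library left out and no genotype term, the log2 difference ran from -0.93 to 0.21 for Tubb3, -0.36 to 0.0062 for Tubb2b, -0.14 to 0.30 for Tuba1a and -0.013 to 0.53 for Tuba1b. The share ran from -1.24 to 1.12 for Tubb3, -0.363 to 1.37 for Tubb2b and -1.92 to 0.599 for Tubb2a, where the alternatives for genes other than Tubb3 were chosen after seeing the data. Median-ratio scaling reversed Tubb5 (-0.10), Tuba1a (-0.21) and Tuba1b (-0.025) in that contrast; the median of all genes moved from 0.25 to 0.0042 with it. RPKM rests on an estimated 122.5 to 176.6 M mapped reads, and the number of libraries limits the precision.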
